A study of Mus musculus with 12 samples.

Results

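Imprinted genes that regulate growth, and the long noncoding RNAs made beside them, were examined in the tibialis anterior, a hindlimb muscle, of mdx/mTR mice. The set was chosen by gene symbol and holds 10 genes, Igf2, H19, Dlk1, Meg3, Rian, Mirg, Peg3, Plagl1, Grb10 and Mest, of 24421 entries in the count table. All 10 passed the filter on low counts and belong to the 13937 genes tested. The data are 12 RNA-sequencing libraries, 6 from C57Bl/6 males (WT) and 6 from mdx/mTR males, all 4 months old. In mdx the Dmd gene, which encodes dystrophin, is disrupted, and mTR names the telomerase RNA gene (Terc). No group carrying only mdx or only mTR was analysed here, so the contributions of the 2 loci cannot be told apart. The labels number 6 samples per group without saying that each came from its own animal, so the p-values measure the spread between these samples.

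Library totals ran from 35136327 to 60330410 counts. Levels are given as CPM, the count scaled to a common library size after correction by the trimmed mean of M-values (TMM). Dmd, the check on the labels, was at 228 to 244 CPM in WT and 35.2 to 56.4 CPM in mdx/mTR. Terc had 2 counts over the WT libraries and 0 over the mdx/mTR libraries, too few to check the label. Muscle identity showed in 8 fast-fibre genes, which summed to 145368 CPM or more in every library. With edgeR's quasi-likelihood test and an adjusted p below 0.05, 48.3% of all tested genes were called, 3479 higher and 3257 lower in mdx/mTR. With library totals as the only scaling the split was 5596 higher and 1560 lower, and over all tested genes the median log2 fold change was then 0.17 in place of 0.01.

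Imprinted genes are expressed mainly from the copy inherited from a single parent, and the choice is kept by DNA methylation at imprinting control regions. Many of them set fetal and postnatal growth, and most fall silent or low in adult tissues. The paternal copy is the active one for Igf2, Dlk1, Peg3, Plagl1 and Mest in most tissues, and the maternal one for H19, Meg3, Rian, Mirg and Grb10. In muscle, Igf2 and H19 are abundant in developing and regenerating fibres, and Peg3, also called Pw1, marks interstitial and satellite progenitors. Counts per gene carry no information on the parental copy, so imprinting itself was not measured here.

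The set divides between 2 clusters and 4 separate loci. H19 (chr7:142575530-142578146, minus strand, GRCm38.p6) and Igf2 (chr7:142650768-142666816, minus strand) lie 72621 bases apart. Dlk1 (chr12:109452485-109463336), Meg3 (chr12:109540996-109571729), Rian (chr12:109603945-109661716) and Mirg (chr12:109734981-109749458) follow each other on the plus strand of chromosome 12, in a domain that ends at Dio3. Peg3 lies at chr7:6703892-6730462, Plagl1 at chr10:13090832-13131694, Grb10 at chr11:11930499-12037428 and Mest at chr6:30733506-30748466. H19, Igf2 and Mest each contain a microRNA gene, whose mature products are shown because their host transcripts rose in mdx/mTR. The sequences are from RefSeq (GRCm38.p6), 5′ to 3′, with the seed (bases 2 to 8) in capitals.
miR-675-5p, in H19: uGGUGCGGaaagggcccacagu
miR-675-3p, in H19: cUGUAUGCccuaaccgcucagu
miR-483-5p, in Igf2: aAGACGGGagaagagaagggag
miR-483-3p, in Igf2: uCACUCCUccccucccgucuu
miR-335-5p, in Mest: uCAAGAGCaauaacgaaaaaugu
miR-335-3p, in Mest: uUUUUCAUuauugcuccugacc

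No other mature microRNA of the 1738 in the RefSeq table carried any of these 6 seeds. The libraries did not measure mature microRNAs: the entries of Mir675 and Mir483 held 0 counts over the 12 libraries, which allows up to 3 counts (0.0460 to 0.0837 CPM in single libraries, counting error only), and Mir335 held 2. The Dlk1-Dio3 domain is the richer one in microRNAs, with 114 mature sequences and 104 distinct seeds from Dlk1 to Dio3. Of these, 19 lay inside Mirg, 6 inside Rian and 3 inside Meg3. The count table has 61 microRNA entries from that stretch, of which 45 had no count in any library and none was tested. A pair of products inside Mirg shares the seed GGUUGCC, and the sequences show how far they differ beyond it.
miR-453, in Mirg: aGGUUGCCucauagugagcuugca
miR-496a-5p, in Mirg: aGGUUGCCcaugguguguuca

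Start sites were found in RefSeq for 9 of the 10 genes, 16 windows in all, each from 250 bases before to 50 after the start. TGCCGC, the hexamer that ZFP57, a zinc finger protein that keeps imprints, binds when its CpG is methylated, was searched on both strands. It occurred in 6 of the 16 windows, belonging to 5 genes, and in 11.6% of all 32851 windows in the table. Among the 6, the Mest windows that start at 30737800 and 30737803 cover nearly the same bases. The hexamer contains a CG. The 6 windows held 13 to 45 CG dinucleotides against a median of 7 over all windows, so the 11.6% is not a matched background. An excess was not tested. The windows of Mest, Plagl1 and Grb10, whose transcripts rose in mdx/mTR, are shown beside that of Meg3, whose transcript was not called, with the hexamer in capitals.
Mest, chr6:30737800-30738099, plus strand: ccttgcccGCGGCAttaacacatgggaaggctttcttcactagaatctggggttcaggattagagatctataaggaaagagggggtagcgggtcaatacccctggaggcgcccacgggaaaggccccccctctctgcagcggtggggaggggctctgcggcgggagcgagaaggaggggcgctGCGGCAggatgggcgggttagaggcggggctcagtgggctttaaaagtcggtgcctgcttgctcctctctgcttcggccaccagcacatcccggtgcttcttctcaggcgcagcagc
Plagl1, chr10:13090582-13090881, plus strand: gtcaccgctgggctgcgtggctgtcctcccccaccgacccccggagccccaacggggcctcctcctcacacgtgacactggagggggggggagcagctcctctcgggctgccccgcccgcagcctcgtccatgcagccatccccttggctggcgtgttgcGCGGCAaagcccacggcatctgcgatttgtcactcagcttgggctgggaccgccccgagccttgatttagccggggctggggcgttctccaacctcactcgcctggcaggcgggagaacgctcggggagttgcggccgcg
Grb10, chr11:12037371-12037670, minus strand: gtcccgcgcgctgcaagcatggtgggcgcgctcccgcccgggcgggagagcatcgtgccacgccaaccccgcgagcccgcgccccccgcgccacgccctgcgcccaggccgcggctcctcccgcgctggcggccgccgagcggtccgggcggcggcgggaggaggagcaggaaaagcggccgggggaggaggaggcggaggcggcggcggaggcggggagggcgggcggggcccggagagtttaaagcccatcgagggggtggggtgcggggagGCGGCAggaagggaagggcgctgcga
Meg3, chr12:109540746-109541045, plus strand: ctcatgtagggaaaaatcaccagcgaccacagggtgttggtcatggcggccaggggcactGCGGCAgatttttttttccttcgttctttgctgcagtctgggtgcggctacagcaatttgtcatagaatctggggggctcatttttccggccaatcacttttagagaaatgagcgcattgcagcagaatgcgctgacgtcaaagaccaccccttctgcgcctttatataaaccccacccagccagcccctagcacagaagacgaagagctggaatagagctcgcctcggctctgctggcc

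The hexamer had 2 matches in the Mest window printed and 1 match each in those of Plagl1, Grb10 and Meg3, so it was present beside genes that rose and beside one that was not called. The Grb10 window had a GC content of 80.0% and 45 CG dinucleotides, against medians of 52.7% and 7 over all windows. GGGGCCCC, a palindrome bound by PLAGL1, occurred in 1 of the 16 windows, that of Peg3, and in 1.08% of all windows. A match is a string of letters, and binding and methylation were not measured.

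Of the 10 genes, 6 rose in mdx/mTR and 4 were not called, while 0 fell; edgeR, DESeq2 and limma-voom each gave 0 lower at an adjusted p below 0.05 and 0 at an unadjusted p below 0.05. Over all tested genes, 25.0% were called higher and 23.4% lower. The 6 that rose were Igf2, H19, Peg3, Plagl1, Mest and Grb10, and the 4 that were not called were Dlk1, Meg3, Rian and Mirg, the whole of the chromosome 12 group. The median log2 fold change of the 10 was 1.17, against 0.01 over all tested genes. By active copy, 4 of 5 paternally expressed and 2 of 5 maternally expressed members rose. By product, 5 of 6 protein-coding genes and 1 of 4 noncoding RNAs rose, and a difference between these classes was not tested. At least 2-fold rises were called for 5, all but Grb10 among the 6, and at least 2-fold falls for 0, against 7.24% and 1.94% of tested genes. The groups did not overlap for 3 of the 10, Igf2, Peg3 and Plagl1, all higher in mdx/mTR. Among all tested genes 25.2% did not overlap, and 12.6% did so with mdx/mTR higher.

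**Figure D1:**
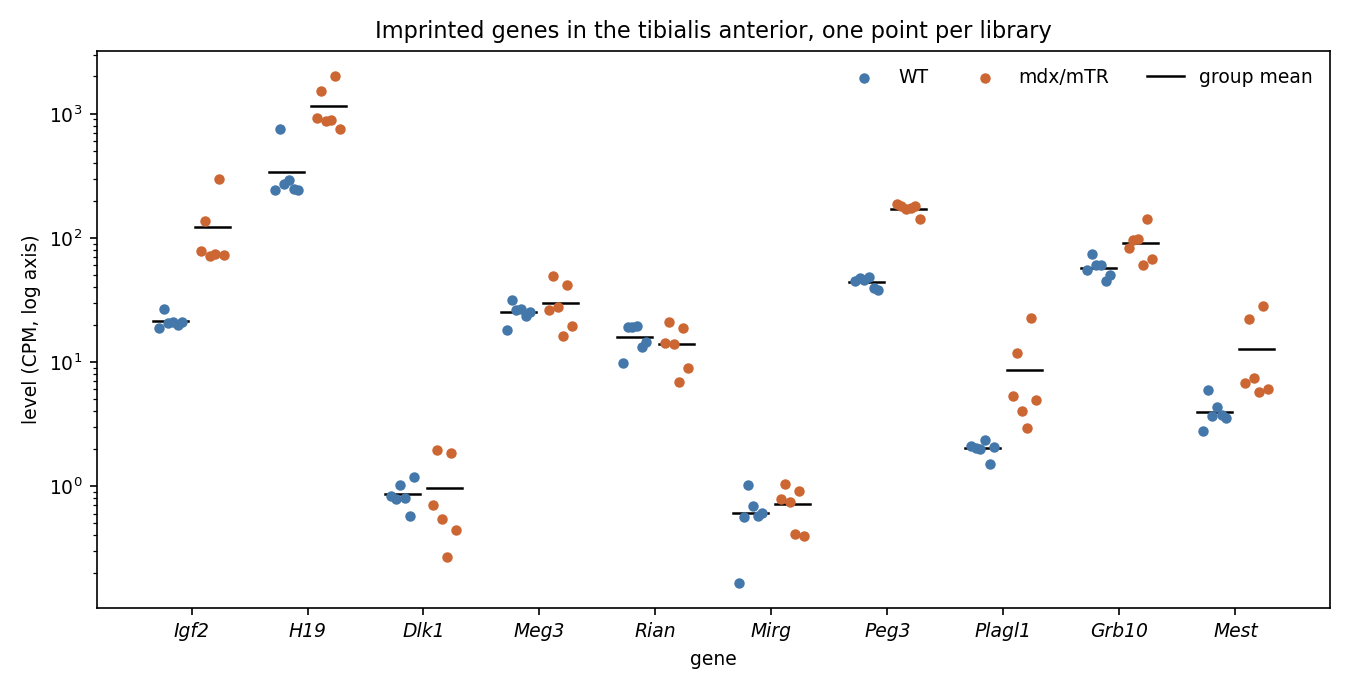
CPM on a log axis for the 10 genes, with 1 point per library (WT blue, mdx/mTR orange, 6 each) and a bar at the group mean. Igf2, Peg3 and Plagl1 show no overlap between groups, H19 in WT has a library at 757 CPM, and the 4 genes of chromosome 12 (Dlk1, Meg3, Rian and Mirg) overlap between groups.

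Igf2 encodes insulin-like growth factor 2, a secreted mitogen that acts through the IGF1 and insulin receptors and supports muscle differentiation. It had its lowest, median and highest level at 18.9, 20.7 and 26.9 CPM in WT and at 71.4, 75.8 and 300.1 CPM in mdx/mTR. All 6 mdx/mTR libraries lay above all WT libraries, and among them replicates 5 (300.1 CPM) and 2 (136 CPM) stood above the other 4, which lay between 71.4 and 77.9 CPM. The mean rose from 21.3 ± 2.81 to 122 ± 90.7 CPM (SD, n = 6 each). The log2 fold change was 2.52 ± 0.34 (SE), with an adjusted p of 6.37e-05 in edgeR, and 110 tested genes had a larger rise. In GENCODE M21, 75.9% of the 50-base stretches of the longest Igf2 transcript also belong to Gm49394, an entry on the same strand, so the level is uncertain to the extent that shared reads were dropped or split.

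H19 is a long noncoding RNA that is made from the copy opposite to that of Igf2 and carries miR-675 in its first exon. Its levels were 243, 259 and 757 CPM in WT (lowest, median and highest) and 748, 912 and 2014 CPM in mdx/mTR. WT replicate 2, at 757 CPM, was the single WT library to reach the mdx/mTR range; the other 5 WT libraries lay between 243 and 292 CPM. H19 means were 342 ± 204 CPM for WT and 1164 ± 497 CPM for mdx/mTR (SD, n = 6 per group), a log2 fold change of 1.77 ± 0.33 (SE; edgeR adjusted p 0.000656). Without WT replicate 2 it was 2.17.

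Peg3, Plagl1, Mest and Grb10 are protein-coding genes of 4 separate loci. Peg3 encodes a zinc finger protein linked to stress responses and progenitor identity. Its levels were 38.2, 45.3 and 48.3 CPM in WT (lowest, median and highest) and 141, 177 and 186 CPM in mdx/mTR. Every mdx/mTR library was above every WT library, and the spread was narrow on both sides, with a coefficient of variation of 9.34% in WT and 9.51% in mdx/mTR. The log2 fold change was 1.97 ± 0.08 (SE; edgeR adjusted p 1.01e-09), from 44.0 ± 4.11 to 172 ± 16.4 CPM (SD, n = 6 each). Of the 6 genes that rose, Peg3 thus had the smallest coefficient of variation in mdx/mTR; those of the other 5 ran from 31.9% for Grb10 to 87.1% for Plagl1.

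Plagl1, also called Zac1, encodes a zinc finger transcription factor that acts on other imprinted genes, Igf2 and H19 among them. It stood at 1.52, 2.04 and 2.36 CPM in WT (lowest, median and highest) and at 2.94, 5.15 and 22.5 CPM in mdx/mTR. The groups did not overlap, and the mdx/mTR libraries spanned 7.63-fold, with replicates 5 (22.5 CPM) and 2 (11.8 CPM) highest. Its log2 fold change was 2.09 ± 0.44 (SE; edgeR adjusted p 0.00162).

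Mest encodes a hydrolase-like membrane protein of mesoderm and adipose tissue. Mest levels were 2.78, 3.70 and 5.89 CPM in WT (lowest, median and highest) and 5.70, 7.11 and 28.0 CPM in mdx/mTR. The groups met only at their edges, WT replicate 2 at 5.89 CPM lying above mdx/mTR replicate 4 at 5.70 CPM. The log2 fold change was 1.68 ± 0.41 (SE; edgeR adjusted p 0.00434). On the opposite strand Copg2 overlaps 23.1% of Mest exon sequence, and the handling of strand is not given in the sources used here. Copg2 itself had a mean of 21.8 CPM for WT and of 23.9 CPM for mdx/mTR, a log2 fold change of 0.13 (edgeR adjusted p 0.0978).

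Grb10 encodes an adaptor that binds the insulin and IGF1 receptors and restrains their signalling. It had 44.5, 57.3 and 73.8 CPM in WT (lowest, median and highest) and 60.5, 89.5 and 142 CPM in mdx/mTR. The groups overlapped, with 4 of 6 mdx/mTR libraries above the highest WT library. This was the smallest of the 6 rises, with a log2 fold change of 0.67 ± 0.18 (SE; edgeR adjusted p 0.00747). In the authors' deposited table the same 6 members have an adjusted p below 0.05, all higher, with smaller log2 fold changes for the variable ones, 2.01 for Igf2 and 1.49 for Plagl1.

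The chromosome 12 members come from the Dlk1-Dio3 domain. Dlk1 encodes a membrane protein of the Notch ligand family that marks immature cells, and Meg3, Rian and Mirg are noncoding RNAs made in the same direction from the maternal copy. Meg3 stood at 18.2, 25.9 and 31.8 CPM in WT (lowest, median and highest) and at 16.1, 27.0 and 48.9 CPM in mdx/mTR. Both the highest and the lowest of the 12 libraries were mdx/mTR ones, so the groups overlapped throughout. Its log2 fold change was 0.25 ± 0.23 (SE; edgeR adjusted p 0.409).

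Rian had 9.78, 16.8 and 19.6 CPM for WT against 6.87, 14.2 and 20.8 CPM for mdx/mTR (lowest, median and highest), and a log2 fold change of -0.19 ± 0.25 (SE; edgeR adjusted p 0.565). Mirg was close to the lower limit of what was tested, at 0.167, 0.588 and 1.03 CPM for WT against 0.393, 0.761 and 1.03 CPM for mdx/mTR. Its log2 fold change was 0.24 ± 0.34 (SE; edgeR adjusted p 0.591), and both genes overlapped between groups. Dlk1 was also low, with 190 counts over the WT libraries and 314 over the mdx/mTR libraries. The lowest, median and highest levels were 0.575, 0.815 and 1.18 CPM among WT libraries and 0.266, 0.622 and 1.96 CPM among mdx/mTR libraries. For Dlk1 the mdx/mTR libraries lay on both sides of WT: replicates 2 (1.96 CPM) and 5 (1.83 CPM) exceeded every WT library, and replicates 3, 4 and 6 (0.547, 0.266 and 0.442 CPM) fell short of every WT library. The log2 fold change of Dlk1 was 0.16 ± 0.43 (SE; edgeR adjusted p 0.778), and its sign was negative without mdx/mTR replicate 2 (-0.20) and without replicate 5 (-0.11).

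Levels of different genes were compared per kilobase of exon sequence in GENCODE M21, in CPM per kb. H19 was the most abundant member in both groups, at 139 ± 83.0 for WT and 473 ± 202 for mdx/mTR (SD, n = 6 per group). In WT it was followed by Grb10 (6.29), Igf2 (3.73), Peg3 (3.30), Meg3 (1.40), Mest (1.01), Rian (0.872), Plagl1 (0.257), Dlk1 (0.153) and Mirg (0.0827). The ranges over libraries overlapped for Igf2 and Peg3, for Meg3 and Mest, for Mest and Rian, for Plagl1 and Dlk1, and for Dlk1 and Mirg. In mdx/mTR the order after H19 was Igf2 (21.3), Peg3 (12.9), Grb10 (10.02), Mest (3.22), Meg3 (1.66), Plagl1 (1.10), Rian (0.766), Dlk1 (0.169) and Mirg (0.0976). From Igf2 downwards the ranges of neighbours in that order overlapped, except for Rian and Dlk1. By its mean, Igf2 thus stood below Grb10 per length in WT and next to H19 in mdx/mTR. In mdx/mTR the range of Igf2 (12.5 to 52.4) overlapped that of Peg3 (10.6 to 14.0), so their order there is not firm.

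Ratios between members asked whether genes had changed unequally, within a domain for 4 of them and between domains for Dlk1 to Igf2. They were taken per library as log2 of (CPM + 0.5) of each gene and compared with two-sided exact permutation tests over the 12 libraries, with Benjamini-Hochberg adjustment over the 5 ratios; no p below 0.00216 is possible here. The Dlk1 to Igf2 ratio had means of -4.005 ± 0.29 (WT) and -6.30 ± 0.44 (mdx/mTR; SD, n = 6 per group), a difference of -2.30 (exact p 0.00216, the smallest possible; adjusted p 0.0108), and the groups did not overlap. Both are paternally expressed growth genes, of different domains, and this difference holds the rise of Igf2 given above.

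Within the chromosome 12 domain the Rian to Meg3 ratio fell by 0.39 on the log2 scale, from -0.68 ± 0.18 to -1.07 ± 0.13 (SD, n = 6 each; exact p 0.00433, adjusted p 0.0108). The highest mdx/mTR value, -0.85 in replicate 1, lay just above the lowest WT value, -0.87 in replicate 1. The Dlk1 to Meg3 ratio differed by -0.19 (exact p 0.247, adjusted p 0.308) and the Mirg to Meg3 ratio by -0.0073 (exact p 0.959, adjusted p 0.959). The H19 to Igf2 ratio was 3.84 ± 0.48 in WT and 3.39 ± 0.33 in mdx/mTR, a difference of -0.45 (exact p 0.0260, adjusted p 0.0433). That call was lost in 8 of the 12 tests that each left out 1 library, namely WT replicate 2, 3 or 4 or mdx/mTR replicate 1, 2, 4, 5 or 6, and the difference was -0.26 without WT replicate 2 (exact test, adjusted p 0.119), the library with the highest H19.

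**Figure D2:**
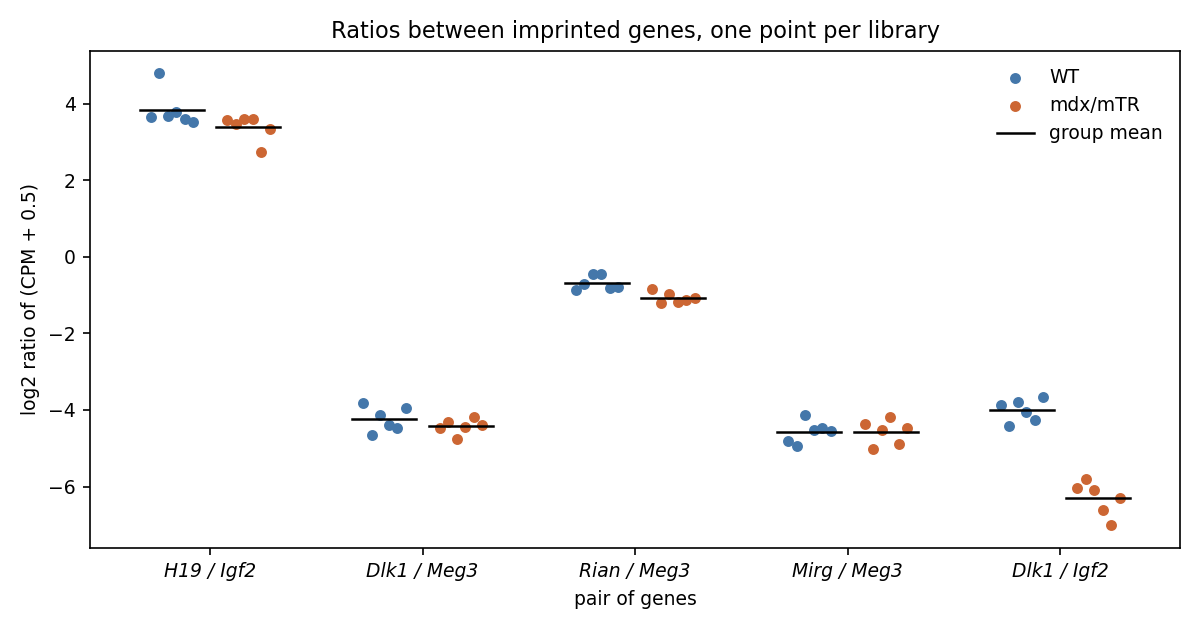
Log2 ratio of (CPM + 0.5) for 5 pairs of genes, with 1 point per library (WT blue, mdx/mTR orange) and a bar at the group mean. The Dlk1 / Igf2 points of the groups are apart (means -4.005 and -6.30), the Rian / Meg3 points are shifted by -0.39, and H19 / Igf2 in WT holds a single high library (4.79).

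The mdx/mTR libraries differed among themselves in the same way for most members. Replicate 5 was among the 2 highest mdx/mTR libraries for all 10 genes and replicate 2 for 8 of them. The exceptions for replicate 2 were Peg3, highest in replicate 1, and Grb10, where replicate 3 came after replicate 5. At the other end, replicate 6 was among the 2 lowest for 9 genes and replicate 4 for 7. For Mest, replicates 5 and 2 had 28.0 and 22.3 CPM while the other 4 lay between 5.70 and 7.41 CPM. Relative to the WT mean, Igf2 ranged from 3.348-fold in replicate 3 to 14.1-fold in replicate 5.

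**Figure D3:**
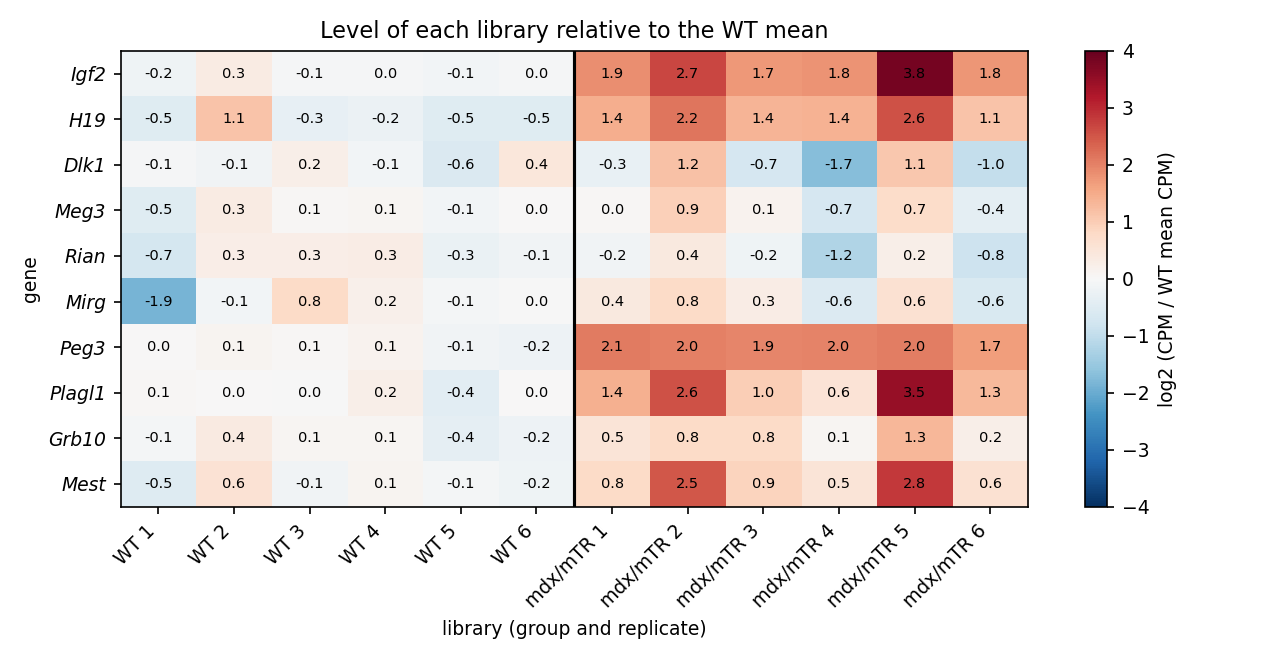
Log2 of CPM over the WT mean CPM for the 10 genes (rows) in the 12 libraries (columns, WT left of the line); red is higher and blue lower than the WT mean. Columns mdx/mTR 2 and 5 are the reddest, Peg3 is even across mdx/mTR libraries, and Dlk1 is red in those 2 columns and blue in the other 4.

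Marker lists of fibroblasts, macrophages, regenerating fibres and tendon had their highest sums in the same mdx/mTR libraries, replicates 5 and 2. Replicate 2 was close to the next library for all of these lists but fibroblasts. The summed level of 10 fibroblast and fibro-adipogenic progenitor genes, of which 8 rose and 0 fell and none was at 0, ran from 1183 to 2204 CPM in WT and from 2913 to 5876 CPM in mdx/mTR. It was highest in mdx/mTR replicates 5 (5876 CPM) and 2 (5467 CPM), against 2913 to 3628 CPM in the other 4, and within WT it was highest in replicate 2 (2204 CPM). By group means, most of this sum was collagen: Col1a1, Col1a2 and Col3a1 had 712, 865 and 1654 CPM for mdx/mTR. Dcn rose but varied little among mdx/mTR libraries (506 ± 32.9 CPM, SD). Ly6a and Pi16 were not called (log2 fold changes 0.01 and -0.04). The 9 macrophage genes found, of which 8 rose, summed to 92.2 to 157 CPM in WT and 256 to 689 CPM in mdx/mTR. They were again highest in replicates 5 (689 CPM) and 2 (467 CPM), followed by replicate 3 (437 CPM). The 9 regenerating-fibre genes found, such as the embryonic myosin Myh3, all rose. Their sum spanned 228 to 503 CPM among WT libraries and 490 to 1627 CPM among mdx/mTR ones, where replicates 5, 2 and 1 had 1627, 1227 and 1208 CPM. By group means, most of this sum was Actc1 (331 CPM for WT, 697 CPM for mdx/mTR), which overlapped between groups. Myh3 alone was lowest among mdx/mTR libraries in replicate 1 (20.1 CPM) and highest in replicates 5 (215 CPM) and 2 (80.5 CPM). Of the satellite cell and myoblast genes 4 of 10 rose and 1 fell, among all tested genes 25.0% and 23.4%. Their sum, 3661 to 3925 CPM in WT and 3849 to 4593 CPM in mdx/mTR, is nearly all Des, the desmin gene of mature fibres (3625 CPM in WT), while Myod1 rose by 0.93 and Vcam1 by 0.81 on the log2 scale (edgeR adjusted p 0.000176 and 0.000844), both without overlap. Tendon genes also rose, 4 of 6 with 0 lower, with sums of 135 to 210 CPM in WT and 246 to 486 CPM in mdx/mTR. The highest were replicates 5 (486 CPM) and 2 (346 CPM), followed by replicate 3 (331 CPM). By group means, most of the tendon sum was Thbs4 (97.5 CPM for WT, 217 CPM for mdx/mTR). Of 2 tested lymphocyte genes 1 rose, and of 5 tested adipocyte genes none was called. Endothelial genes went the other way, with 5 of 8 lower and 0 higher, and so did Schwann cell genes, with 6 of 8 lower and 0 higher, and smooth muscle and pericyte genes, with 4 of 7 lower and 1 higher. The part of these cells in the levels of the 10 members was not tested, and in whole muscle a change in the number of cells of a type cannot be told apart from a change in RNA per cell.

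**Figure D4:**
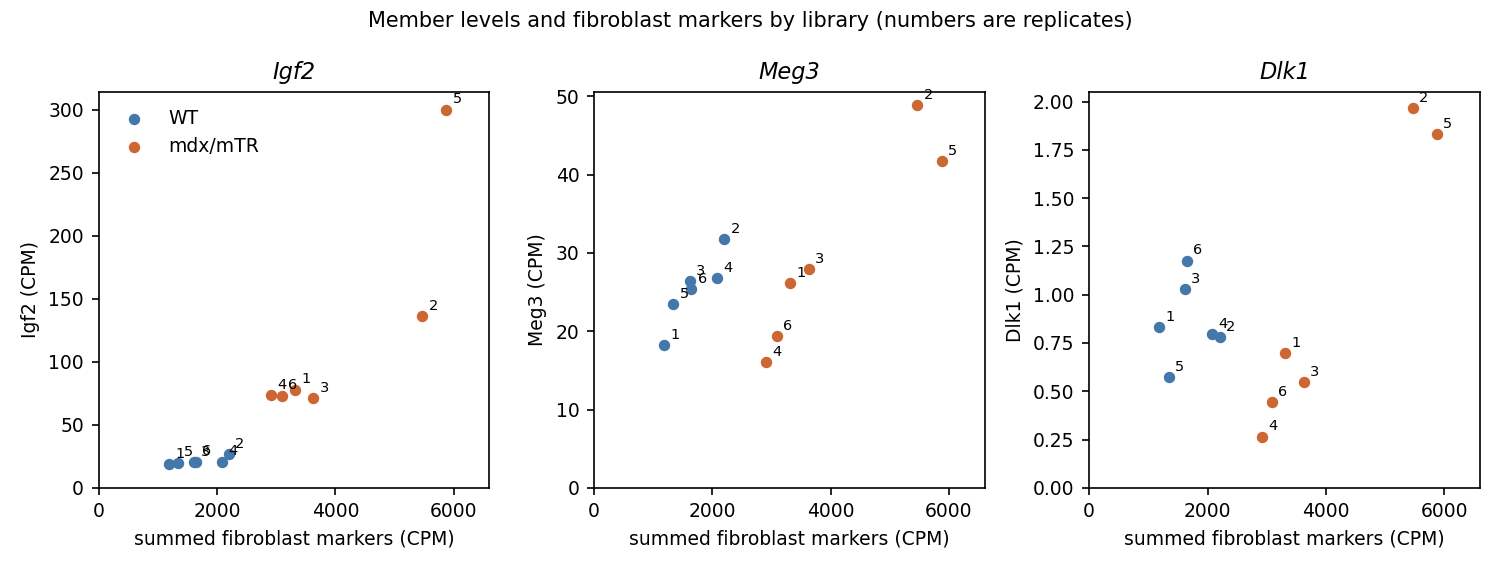
Level of Igf2, Meg3 and Dlk1 (CPM, vertical axes from 0) against the summed level of 10 fibroblast markers (CPM, horizontal axes), with 1 numbered point per library (WT blue, mdx/mTR orange). Most of the sum is Col1a1, Col1a2 and Col3a1. Replicates 2 and 5 of mdx/mTR lie at the upper right in each panel, and the other 4 mdx/mTR libraries lie above WT for Igf2 but below 5 or more of the 6 WT libraries for Dlk1.

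Covariation between members was examined inside each group, over 6 libraries, on log2 of (CPM + 0.5), for 6 pairs (12 relations, Benjamini-Hochberg adjusted). In mdx/mTR, Dlk1 and Meg3 were related with r = 0.97 (Pearson, exact permutation p 0.00417, adjusted p 0.0167) and rho = 0.94 (Spearman, exact permutation p 0.0167, adjusted p 0.04); without replicates 2 and 5, r was 0.90. In WT the same pair had an r of 0.088 (exact permutation p 0.885, adjusted p 0.929; -0.089 without replicates 5 and 6) and a rho of -0.14 (exact permutation p 0.803), and a difference between the groups was not tested. Meg3 and Rian had an r of 0.98 in mdx/mTR (exact permutation p 0.00556, adjusted p 0.0167; rho 0.94, exact permutation p 0.0167) and 0.91 in WT (exact permutation p 0.00417, adjusted p 0.0167; rho 0.94, exact permutation p 0.0167). Without the 2 libraries farthest from the median of Meg3 on this log scale (replicates 2 and 4 in mdx/mTR, 1 and 2 in WT) these values were 0.96 and 0.93; replicate 5 of mdx/mTR stayed in. Meg3 and Mirg had an r of 0.95 in mdx/mTR (exact permutation p 0.0153, adjusted p 0.0306; rho 0.89, exact permutation p 0.0333, adjusted p 0.0667), or 0.90 without replicates 2 and 4, and of 0.70 in WT (exact permutation p 0.121, adjusted p 0.145; rho 0.37, exact permutation p 0.497). For Rian and Mirg, r was 0.97 in mdx/mTR (exact permutation p 0.00417, adjusted p 0.0167; rho 0.94, exact permutation p 0.0167), or 0.98 without replicates 4 and 6. In WT it was 0.83 (exact permutation p 0.0444, adjusted p 0.0593; rho 0.54, exact permutation p 0.297), and 0.33 without replicates 1 and 5.

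For H19 and Igf2 the r was 0.96 in mdx/mTR (exact permutation p 0.00833, adjusted p 0.02; rho 0.94, exact permutation p 0.0167) and 0.97 in WT (exact permutation p 0.0236, adjusted p 0.0405; rho 0.83, exact permutation p 0.0583). Both relations rest on the libraries with extreme levels: r was 0.46 in mdx/mTR without replicates 2 and 5, and 0.42 in WT without replicates 2 and 4. Dlk1 and Igf2 had an r of 0.85 in mdx/mTR (exact permutation p 0.0444, adjusted p 0.0593; rho 0.71, exact permutation p 0.136), which was 0.44 without replicates 2 and 5, and of -0.042 in WT (exact permutation p 0.929; rho -0.086, exact permutation p 0.919; r -0.38 without replicates 5 and 6).

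The genes most like a member over the 6 mdx/mTR libraries were taken as the 3 with the highest Pearson r among 9508 genes (9509 for Dlk1) with a mean of at least 5 CPM, as a description. For Meg3 they were Sparc (r 0.996), Ppic (0.995) and Adgrl2 (0.992), and for Dlk1 Matn2 (0.994), Ticam1 (0.993) and Col3a1 (0.991). Sparc encodes a secreted matrix protein and Col3a1 the chain of type III collagen. For Igf2 they were Npnt (0.996), Tbc1d13 (0.995) and Rcc2 (0.995), and for H19 Acer3 (0.993), Marcks (0.992) and Atp8b2 (0.991). Depth, tissue makeup and the 2 high libraries are shared by all these points. The top 3 of so many genes over 6 libraries reach a high r by selection alone, so these values show no link. Adgrl2 was lower in mdx/mTR (log2 fold change -0.47, edgeR adjusted p 0.0125) and Tbc1d13 was not called (0.09, edgeR adjusted p 0.366). The others named were called higher.

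The genes that share a domain with a member were taken from lists of imprinted genes and their neighbours. The lists also held the Kcnq1 and Peg10 clusters, which contain no member. Around Peg3, both tested genes rose: Zim1, a maternally expressed zinc finger gene, from 5.5045 ± 1.09 to 17.7 ± 2.96 CPM (SD; log2 scale 1.68 ± 0.14, SE, edgeR adjusted p 1.17e-06), and Usp29, a deubiquitinase gene that shares the Peg3 control region, from 0.221 to 0.606 CPM (1.43, adjusted p 0.000488). The groups overlapped for neither gene. Over all tested genes, 25.0% were called higher and 12.6% were higher without overlap. Only 2 genes were tested around each of Peg3 and Grb10. Around Grb10, Ddc, the gene of aromatic amino acid decarboxylase, rose from 0.260 to 0.904 CPM (1.78, edgeR adjusted p 0.00491), and Cobl rose by 0.24 on the log2 scale (adjusted p 0.00342).

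On chromosome 12, 2 of the 4 tested neighbours of Dlk1 and Meg3 rose and 0 fell, against 25.0% and 23.4% of all tested genes. Dio3, the gene of the deiodinase that inactivates thyroid hormone, went from 0.238 to 0.542 CPM (log2 scale 1.16 ± 0.36, SE, edgeR adjusted p 0.0175) and Begain from 0.261 to 0.585 CPM (1.16, adjusted p 0.0125). Both overlapped between groups and held few counts, 53 in WT and 167 in mdx/mTR for Dio3. Wdr25 had a log2 fold change of 0.15 (edgeR adjusted p 0.198). Rtl1, the retrotransposon-derived gene of this domain, had 16 counts in WT and 59 in mdx/mTR and was not tested.

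In the Igf2-H19 and Kcnq1 domains together 6 of 10 tested genes rose and 1 fell, against 25.0% and 23.4% of all tested genes. Nctc1 was the only tested gene of this list beside H19 and Igf2. The rest belong to the Kcnq1 cluster, which holds no member, so the count does not describe the surroundings of Igf2 and H19. The median log2 fold change of the 10 was 0.36. Tspan32, a tetraspanin of blood cells, had the largest, from 0.278 to 1.05 CPM (1.90 ± 0.26, SE, edgeR adjusted p 6.18e-05). Nctc1, a noncoding transcript downstream of H19, rose from 85.7 ± 7.31 to 119 ± 21.1 CPM (SD; log2 scale 0.48, edgeR adjusted p 0.00170). The highest Nctc1 level was in mdx/mTR replicate 1, at 152 CPM, and replicates 5 and 2 had the lowest mdx/mTR levels, at 97.1 and 99.8 CPM, whereas those were the highest for H19 and Igf2. Osbpl5, an oxysterol-binding protein gene, rose by 0.34 on the log2 scale (adjusted p 0.000171). Cdkn1c, the cell cycle inhibitor of this region, had a log2 fold change of 0.37 (edgeR adjusted p 0.0548).

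For the Mest and Peg10 clusters, 3 of 10 tested genes rose and 2 fell, against 25.0% and 23.4% of all tested genes. Peg10, a retrotransposon-derived gene, went from 1.36 to 3.96 CPM (1.54 ± 0.37, SE, edgeR adjusted p 0.00358), Tfpi2 from 0.438 to 1.01 CPM (1.201, adjusted p 0.00385) and Ppp1r9a from 4.84 to 8.09 CPM (0.74, adjusted p 0.000991). Peg10 was at 9.65 CPM in mdx/mTR replicate 5 and at 4.11 CPM in the next highest, replicate 2. Asb4, in the same stretch as Peg10, fell from 29.0 ± 2.58 to 13.2 ± 3.05 CPM (-1.13 ± 0.13, SE, edgeR adjusted p 1.70e-05), without overlap. The genes named from the Peg10 cluster therefore differed in direction. Copg2, which overlaps Mest and was the only tested gene of this list beside it, was not called (log2 fold change 0.13, edgeR adjusted p 0.0978).

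**Figure D5:**
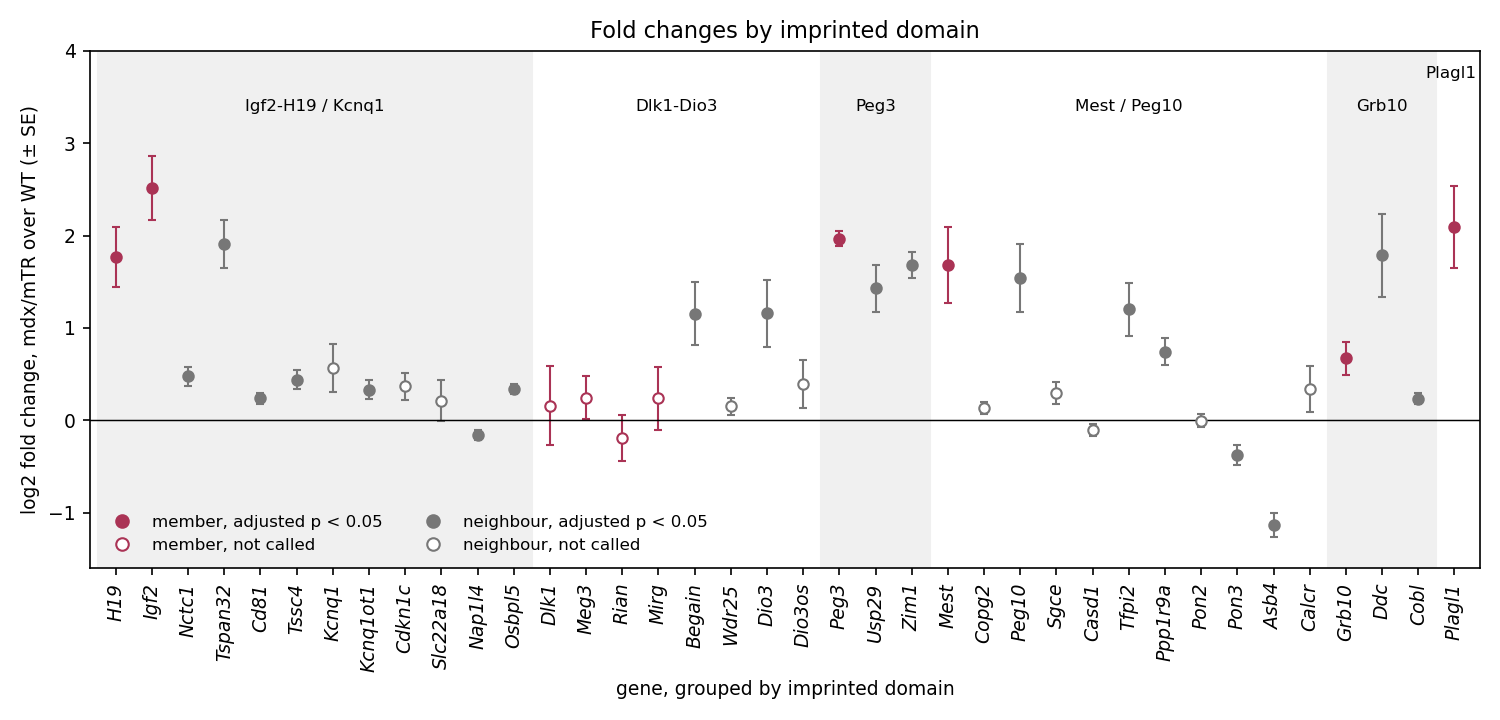
Log2 fold change between mdx/mTR and WT and its standard error (edgeR) for members (red) and neighbours (grey), grouped by imprinted domain. The Kcnq1 and Peg10 clusters are drawn with Igf2-H19 and Mest, and filled circles had an adjusted p below 0.05. The 4 members of the Dlk1-Dio3 domain are open circles near 0, Peg3 with Usp29 and Zim1 lies between 1.43 and 1.97, and Asb4 is at -1.13.

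Among 26 tested imprinted genes of other loci, 6 rose and 7 fell, with a median log2 fold change of 0.01. Zdbf2, a paternally expressed zinc finger gene, rose from 3.34 ± 0.771 to 13.8 ± 4.997 CPM (2.04 ± 0.22, SE, edgeR adjusted p 1.18e-05), with its highest levels again in mdx/mTR replicates 5 (22.5 CPM) and 2 (15.2 CPM). Gatm, a creatine synthesis gene that is imprinted in placenta, rose by 1.25 (edgeR adjusted p 0.00291). Its level was 28.2 CPM in mdx/mTR replicate 5 and 12.7 CPM in the next highest, replicate 2. Slc38a4, an amino acid transporter gene, fell from 195 ± 32.2 to 91.9 ± 16.01 CPM (-1.09 ± 0.13, SE, edgeR adjusted p 1.76e-05). Blcap (-0.70, adjusted p 9.12e-07) and Slc22a3 (-1.39, adjusted p 0.00423) fell as well. Over the 6 lists together, 21 of 54 tested genes rose and 10 fell, against 25.0% and 23.4% of all tested genes, while 10 rose and 3 fell at least 2-fold, against 7.24% and 1.94%.

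Igf2r, the imprinted receptor that clears IGF2, stood at 170 ± 8.89 CPM (WT) and 171 ± 13.9 CPM (mdx/mTR; SD), with a log2 fold change of 0.01 (edgeR adjusted p 0.912), and Igf1r had 0.05 (adjusted p 0.603). Insr, the insulin receptor gene, fell from 173 ± 7.99 to 131 ± 7.54 CPM (-0.40 ± 0.05, SE, edgeR adjusted p 2.66e-05) and Irs1, an adaptor below it, fell by 0.39 (adjusted p 0.000894). Of the 10 tested genes for IGF2 receptors, their signalling and the proteins that bind Igf2 mRNA, 2 rose and 5 fell, against 25.0% and 23.4% of all tested genes. Lin28a, which encodes an RNA-binding protein that blocks let-7 maturation, was called higher (edgeR adjusted p 1.82e-05), with 0 to 3 counts in each WT library and 13 to 50 in each mdx/mTR library.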

How the data were processed

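RNA of the tibialis anterior was sequenced from 6 WT and 6 mdx/mTR libraries. The authors deposited whole-number counts per gene symbol; per the submitters' processing notes, FastQC, STAR and DESeq2 were used with the build mm10. The counter, the annotation, versions and strand handling are not given in the sources used here. The authors' deposited table holds a mean normalised signal, a log2 fold change with its error, a test score and p-values per gene, under column names that DESeq2 writes (per the file headers). In it 6 members were called.

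The deposited counts went unchanged into edgeR 4.0.16 (R 4.3.3): filterByExpr (13937 genes, 99.97% of counts), TMM scaling, glmQLFit and glmQLFTest with group as the single term, and Benjamini-Hochberg adjustment over all tested genes (threshold 0.05). The standard error is the log2 fold change divided by the square root of F. CPM use TMM-scaled totals, ratios a pseudocount of 0.5 CPM. DESeq2 1.42.0, limma 3.58.1 (voom), Python 3.11.15, numpy 2.4.6 and scipy 1.17.1 were also used. The fits were run on simulated counts with the same spread set for every gene. They were thus not checked at the larger spread of Igf2, Plagl1 and Mest. Members and lists were chosen with earlier results of these data known. All 10 members are named; of each list of imprinted-domain, imprint maintenance and IGF2-related genes, the 3 smallest p-values and every called gene with at least a 2-fold change are named; cell marker lists are given by counts and sums, and any other gene was chosen after its values were seen. Coordinates come from RefSeq GRCm38.p6, exon lengths and overlaps from GENCODE M21.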

Additional observations from a re-analysis of the deposited data

Results flagged for a closer look

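Libraries that stood apart inside a group of 6 were sought with Dixon's ratio, the distance from an extreme value to the next one as a share of the range, at its 95% critical value. This was done for 30 groups of values (10 genes and 5 ratios in 2 groups), of which 6 exceeded it, where chance gives about 1 in 20, or 1.5; the values are not independent of each other. WT replicate 2 had the highest Igf2 in WT (26.9 CPM against 18.9 to 20.9 CPM in the others), the highest H19 (757 CPM against 243 to 292 CPM) and the highest log2 ratio of H19 to Igf2 (4.79 against 3.51 to 3.77). In mdx/mTR, replicate 5 had the highest Igf2 (300.1 CPM against 71.4 to 136 CPM) and the lowest log2 ratio of H19 to Igf2 (2.74 against 3.346 to 3.61). Peg3 was lowest in mdx/mTR replicate 6 (141 CPM against 169 to 186 CPM).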

How the results depend on the processing

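The 6 called members kept their direction and an adjusted p below 0.05 under every alternative run: 2 other filters, 3 other scalings, DESeq2, limma-voom, a replicate block, each library left out in turn, and WT replicate 2 with mdx/mTR replicate 5 left out together, which was chosen after seeing the data. Over these, log2 fold changes ran from 2.02 to 2.72 for Igf2, from 1.54 to 2.17 for H19, from 1.93 to 2.13 for Peg3, from 1.54 to 2.30 for Plagl1, from 1.29 to 1.88 for Mest and from 0.50 to 0.84 for Grb10. The count of all genes called ran from 4621 (adjusted p 0.01) to 7156 (library totals alone). Dlk1 and Mirg have no value under the filter of at least 1 CPM in 6 libraries, which removes them.

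The log2 fold change of Dlk1 was -0.15 with limma-voom, -0.10 with the replicate block, -0.14 without WT replicate 2 and mdx/mTR replicate 5, and -0.20 to 0.35 with 1 library left out. The Mirg to Meg3 ratio differed by 0.0994 with a pseudocount of 0.1 CPM and by -0.0854 to 0.0799 with 1 library left out. The H19 to Igf2 difference was no longer called with a pseudocount of 2 CPM (-0.38, adjusted p 0.188) or without WT replicate 2 and mdx/mTR replicate 5 (-0.13, adjusted p 0.119), and ran from -0.51 to -0.26 with 1 library left out; the cause was not tested.

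Libraries with the same replicate number had correlations of their deviations from -0.15 to 0.35, with 2 of 6 above 0.1. The labels do not say whether the numbers pair the samples, and these values do not settle it. With the replicate block 6420 genes were called. As sign-flip tests of same-numbered libraries, where the smallest p is 0.03125, the ratio differences of H19 to Igf2 (-0.45, adjusted p 0.0781), Rian to Meg3 (-0.39, adjusted p 0.104) and Dlk1 to Igf2 (-2.30, adjusted p 0.0781) were not called with the block, exact tests throughout. H19 to Igf2 and Dlk1 to Igf2 were each at that smallest sign-flip p of 0.03125. Adjusted over the 5 ratios, it passes below 0.05 only if nearly all ratios reach it. The block test could thus hardly call any ratio, and nothing is concluded from the lost calls. Depth limits Dlk1 and Mirg most, at 0.266 CPM and 0.167 CPM in their lowest libraries.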

Other observations

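Genes that keep or erase imprints were described as a list of 18, of which 15 were tested. In mdx/mTR 5 rose and 1 fell, against 25.0% and 23.4% of all tested genes, with a median log2 fold change of 0.13. Dnmt1, the methyltransferase that copies methylation at replication, rose from 15.9 ± 1.16 to 21.5 ± 2.44 CPM (SD, n = 6 each; 0.43 ± 0.08, SE, edgeR adjusted p 0.000433). Uhrf1, its partner at the replication fork, rose from 0.750 to 1.58 CPM (1.08, adjusted p 0.0448). The demethylating dioxygenase genes Tet2 (0.34, edgeR adjusted p 0.00101) and Tet1 (0.75, adjusted p 0.00503) rose too. Ctcf, which insulates Igf2 from its enhancers on the maternal copy, had a log2 fold change of -0.10 (adjusted p 0.116), and Zfp57 of 0.42 (adjusted p 0.323).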
